A study of Rattus norvegicus with 9 samples.

Results

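Mbp, Mog, Mag, Mobp, Cnp, Cldn11, Mal, Ermn and Opalin, 9 genes of mature oligodendrocytes and their myelin, were followed in hippocampal RNA from rats with and without stroke. They were taken by gene symbol from the deposited count tables. All 9 were among the 18733 genes listed and among the 14840 that passed the filter on low counts. Poly(A) RNA was sequenced from 9 male rats, 3 in each of 3 groups, with 1 library per rat. Control rats were fed as usual. Middle cerebral artery occlusion (MCAO), which blocks a main artery of the brain and models ischaemic stroke, was used for the cognitive impairment model. Impaired rats, admitted on their Y-maze and object recognition scores, were divided at random into a PSCI group (post-stroke cognitive impairment, usual feeding for 2 weeks) and a taVNS group (transcutaneous auricular vagus nerve stimulation, which drives the vagus branch of the outer ear through the skin, for 14 days). Strain, age, hemisphere and whether controls had a sham operation were not given in the sources used here, and 1 protocol text speaks of mice although each label names the rat. Because both stroke groups were chosen for poor scores, they stand for impaired animals and not for all animals after occlusion.

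Myelin is the stacked membrane that oligodendrocytes wrap around axons, where it speeds conduction and supports the axon. Its compact part is held together by proteolipid and basic proteins, its layers are sealed by tight junctions, and its inner and outer surfaces carry adhesion molecules of their own. In the hippocampus myelinated fibres run mainly in the alveus, the fimbria and the perforant path.

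None of the 9 genes passed the test on its level in any of the 3 comparisons, and levels within a group differed widely, by 1.54-fold (Mog) to 2.13-fold (Mal) among control libraries and by 1.95-fold (Ermn) to 3.76-fold (Mal) among PSCI libraries. The proportions of the genes to each other differed between the groups with less spread. Relative to the mean of the 9 genes in the same library, Cldn11, Mag and Mog stood higher and Opalin, Ermn and Mbp lower in all 3 PSCI libraries than in any control or taVNS library. For Mog the margin to taVNS was small, with a lowest PSCI value of -1.56 log2 and a highest taVNS value of -1.58. The ratio of Cldn11 to Opalin showed this most plainly. By CPM (counts scaled to library size and corrected with TMM, the trimmed mean of M values) it was 1.58, 1.78 and 1.74 in control replicates 1, 2 and 3. It was 4.85, 5.0 and 5.43 in the PSCI libraries, and 1.76, 1.68 and 1.92 in the taVNS libraries. The lowest PSCI ratio was thus above every other library, although the members' summed level differed widely among the same PSCI libraries. This ratio was picked after the values had been seen and is given with no test.

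The promoters of Cldn11, Mag and Opalin are shown because these genes stand at the opposite ends of that shift. They are RefSeq sequences of the assembly GRCr8, a newer build than the one the authors used, and each covers the 250 bases before the transcription start. All 3 genes lie on the minus strand, at chr2:114149540-114149789 for Cldn11, chr1:95291045-95291294 for Mag and chr1:249858191-249858440 for Opalin. Capitals mark matches, on either strand, to ACAAAG (a motif of SOX factors such as Sox10), to CTGGCAC or CTGGTAC (motifs like those bound by Myrf, the myelin gene regulator) and to CAGCTG (an E-box of the kind bound by Olig factors). No marked match overlaps another.
Cldn11: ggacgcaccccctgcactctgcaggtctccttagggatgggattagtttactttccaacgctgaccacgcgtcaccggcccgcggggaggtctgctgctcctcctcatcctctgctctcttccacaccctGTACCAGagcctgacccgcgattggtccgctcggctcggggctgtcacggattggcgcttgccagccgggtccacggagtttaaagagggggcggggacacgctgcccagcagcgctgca
Mag: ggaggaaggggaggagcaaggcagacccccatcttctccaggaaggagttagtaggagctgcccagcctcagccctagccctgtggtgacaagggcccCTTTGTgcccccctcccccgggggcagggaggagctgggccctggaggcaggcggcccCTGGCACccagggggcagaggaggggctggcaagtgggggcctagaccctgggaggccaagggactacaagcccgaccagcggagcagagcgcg
Opalin: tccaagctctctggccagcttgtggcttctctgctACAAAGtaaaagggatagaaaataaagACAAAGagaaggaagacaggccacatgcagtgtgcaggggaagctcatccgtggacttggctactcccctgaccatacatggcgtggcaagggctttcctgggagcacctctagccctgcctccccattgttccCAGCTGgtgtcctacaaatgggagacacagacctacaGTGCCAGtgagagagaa
The Cldn11 window held 1 Myrf-type match and neither of the other motifs. The Mag window held 1 Myrf-type and 1 SOX-type match. The Opalin window held 1 Myrf-type match, 2 SOX-type matches and 1 E-box. Among 33469 promoters of the same length, 5.48% held the Myrf-type motif, 16.3% ACAAAG and 12% CAGCTG. The 3 windows shown are a choice: of the other members found, Mal and Cnp held 1 Myrf-type match each. Mobp and both Mbp windows held 0 Myrf-type matches. Mobp held 8 SOX-type matches and no E-box. Cnp and 1 Mbp window held 1 SOX-type match and 1 E-box each, and Mal and the other Mbp window held neither motif. These matches are letters in a window and were not tested as binding sites.

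Library totals ran from 13747389 to 15415694 counts, so 3 counts, the floor used here, correspond to 0.195 to 0.218 CPM and every member stood far above it. The neuron markers and the dentate and CA field markers were present in each library, with summed levels of 7693 to 12850 and 892 to 1605 CPM before TMM correction, both lowest in PSCI replicate 2. Markers of meninges and fibroblasts, tissue that borders the hippocampus, summed to 709.8 in PSCI replicate 2 and 1203 in taVNS replicate 3 and to 142 to 213 in the other 7 libraries. None of the 10 genes of that list was at 0 in any library, and 0 of 10 were called in either stroke comparison. Markers of choroid plexus and ependyma summed to 32.8 to 50.8 in PSCI, 9.17 to 20.5 in control and 15.3 to 21.0 in taVNS. Thalamus and habenula markers summed to 112 in PSCI replicate 2 and 56.8 to 94.9 elsewhere, and striatum markers to 163 and 86.1 to 133. Each of these lists had a gene at 0 in at least 1 library. Of the reactive astrocyte markers 8 of 9, and of the microglia and macrophage markers 8 of 12, were higher in PSCI than in control. The summed reactive astrocyte level was 4683 to 9907 in PSCI, 668 to 1216 in control and 934 to 1419 in taVNS. The summed microglia and macrophage level was 652 to 996 in PSCI, 360 to 444 in control and 468 to 612 in taVNS, and neither list had a gene at 0. The part of these other cells in the results below was not tested. In bulk tissue, fewer oligodendrocytes and less RNA per oligodendrocyte cannot be told apart.

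Among the proteins of compact myelin, Mbp (myelin basic protein, which binds the cytoplasmic faces of the membrane together) was the most abundant member. It stood at 7413, 4953 and 3830 CPM in control replicates 1, 2 and 3, at 5023, 1648 and 5116 in PSCI and at 5267, 5876 and 3751 in taVNS. The groups overlapped, and PSCI replicate 2 lay below every other library. Mobp, a smaller basic protein of the same layers, was measured at 2583, 1728 and 1579 CPM in control, 2583, 789 and 2321 in PSCI and 2121, 2257 and 1486 in taVNS. Its highest control and highest PSCI values were nearly the same. Mal, a proteolipid of lipid rafts involved in membrane traffic to myelin, stood at 565, 325 and 265 CPM in control, 448, 119 and 241 in PSCI and 303, 326 and 255 in taVNS. Mal was the most uneven member within PSCI, with a 3.76-fold range from replicate 2 to replicate 1.

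Cldn11, the claudin that forms the tight junctions between myelin layers, stood at 351, 228 and 191 CPM in control, 514, 226 and 556 in PSCI and 255, 252 and 189 in taVNS. PSCI replicates 1 and 3 were above every control and taVNS library, while PSCI replicate 2 lay among them. Cldn11 is also known from the arachnoid barrier of the meninges, whose part in its level was not tested.

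On the inner side of the sheath, Mag (myelin-associated glycoprotein, an adhesion molecule facing the axon) was measured at 315, 238 and 192 CPM in control, 348, 174 and 379 in PSCI and 272, 291 and 198 in taVNS. Cnp, the cyclic nucleotide phosphodiesterase of non-compact myelin, stood at 718, 469 and 363 CPM in control, 549, 301 and 611 in PSCI and 469, 520 and 396 in taVNS. On the outer face, Mog (myelin oligodendrocyte glycoprotein) stood at 139, 107 and 90.8 CPM in control, 152, 59.5 and 144 in PSCI and 121, 136 and 89.6 in taVNS. For all 3 of these surface and non-compact myelin genes the groups overlapped.

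Ermn (ermin, a cytoskeletal protein of late oligodendrocytes) was at 109, 75.0 and 57.7 CPM in control, 61.8, 32.6 and 63.4 in PSCI and 85.3, 90.8 and 61.0 in taVNS. Opalin, a transmembrane glycoprotein made by oligodendrocytes, was at 222, 128 and 110 CPM in control, 106, 45.1 and 102 in PSCI and 145, 150 and 98.2 in taVNS. Opalin alone had all 3 PSCI values below all 3 control values, 1 of 9 members, where 27.4% of all genes tested did not overlap in this comparison. No member was separated between taVNS and PSCI (25.9% of all genes were), nor between taVNS and control (11.1%).

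**Figure D1:**
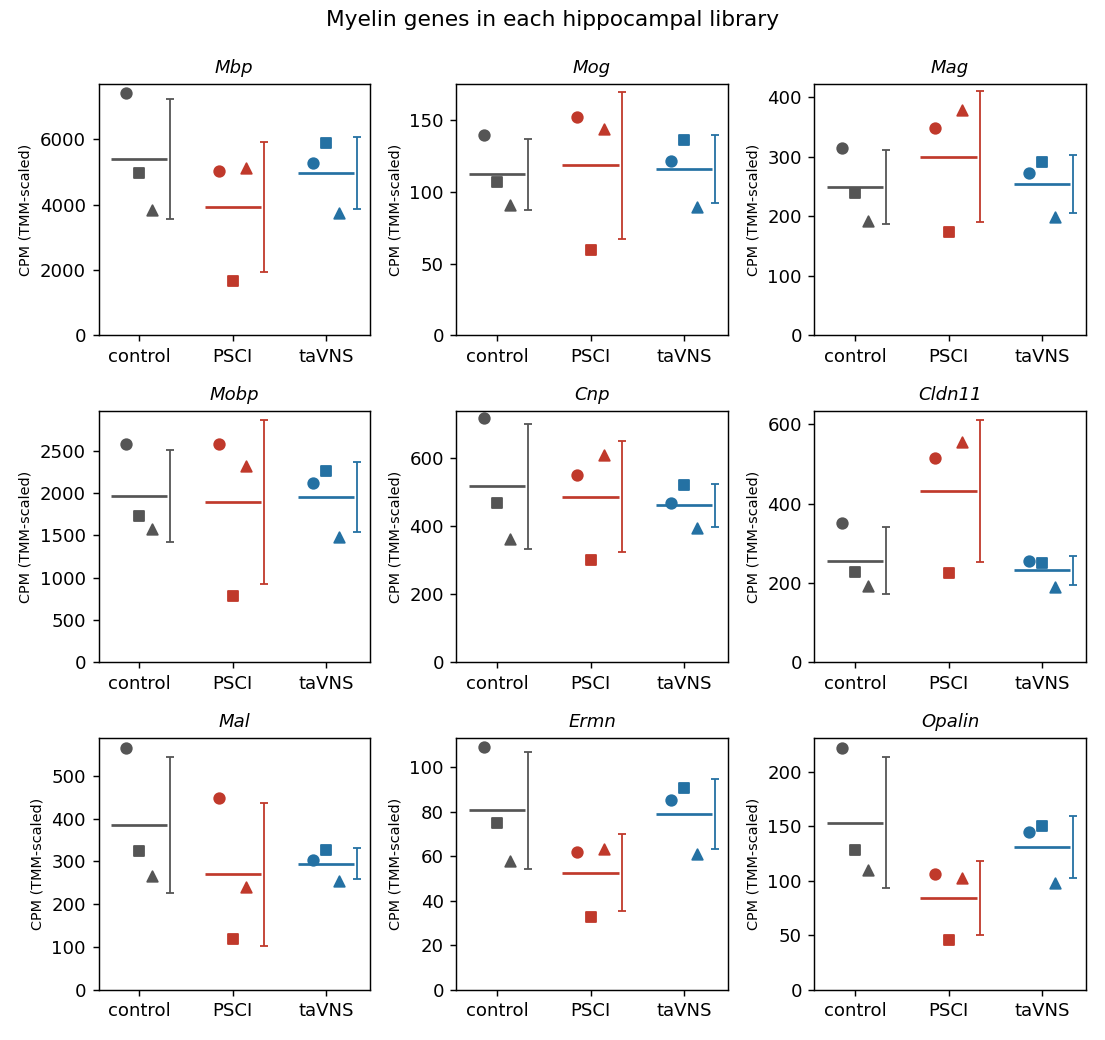
Level of each of the 9 myelin genes in every library, in CPM on a linear axis, by group (grey control, red PSCI, blue taVNS). Circles, squares and triangles are replicates 1, 2 and 3, and the line and bar are the mean and SD of 3 libraries; PSCI replicate 2 is the lowest PSCI library in each panel.

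The libraries moved the members together. Control replicate 1 was the highest and control replicate 3 the lowest of the control libraries for 9 of 9 members. PSCI replicate 2 was the lowest PSCI library for 9 of 9, and taVNS replicate 3 the lowest taVNS library for 9 of 9. Summed over the members, the level was 12416, 8251 and 6679 CPM in control, 9786.5, 3394 and 9532 in PSCI and 9038, 9899 and 6524 in taVNS. As a share of all counts this was 0.661% to 1.2% in control, 0.357% to 0.971% in PSCI and 0.672% to 0.960% in taVNS. The lowest library of each stroke group, PSCI replicate 2 and taVNS replicate 3, was also the one with raised meningeal markers, and whether these are linked was not tested. From the highest to the lowest library the level differed 2.18-fold for Mag, the narrowest range, and 4.92-fold for Opalin, the widest.

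Levels are compared between genes by RPKM, which divides by gene length. In control the mean was 3097 ± 1018 RPKM (SD, n = 3) for Mbp, 853 ± 231 for Mobp and 251 ± 85.6 for Cnp. Mal followed at 189 ± 75.7, Cldn11 at 160 ± 50.2, Mag at 104 ± 25.0, Mog at 76.5 ± 17.5, Opalin at 63.7 ± 24.5 and Ermn at 52.5 ± 16.5. Mbp, Mobp and Cnp were set apart from each other by more than their SDs, while from Cnp down the range of mean ± SD of each gene overlapped that of its neighbour in the order. In PSCI the mean of Cldn11, 276 ± 109 RPKM, came above that of Cnp, 244 ± 76.1, and Opalin, 36.3 ± 13.7, came level with Ermn, 35.3 ± 10.7, differences that lay within the SDs. In taVNS the order was Mbp at 2906 ± 582 RPKM, Mobp at 872 ± 171, Cnp at 229 ± 25.6, Mal at 148 ± 15.2, Cldn11 at 147 ± 22.4, Mag at 109 ± 19.1, Mog at 80.1 ± 16.0, Opalin at 55.9 ± 11.4 and Ermn at 52.4 ± 9.71, as in control. Of the summed RPKM of the 9 genes, Mbp made up 63.7% ± 1.36 in control, 55.5% ± 2.60 in PSCI and 63.1% ± 0.929 in taVNS (SD, n = 3). Cldn11 made up 3.30% ± 0.0703, 6.97% ± 0.817 and 3.23% ± 0.221 in the same order.

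In PSCI against control, the comparison that asks how the impaired brain after occlusion differs, no single member passed the test. Under edgeR's quasi-likelihood test, with calls made where the p adjusted over all genes by Benjamini-Hochberg was under 0.05, 0 of 9 members were called against 9.85% of all genes (7.71% higher and 2.14% lower in PSCI). By DESeq2 and limma-voom 0 were called too, and 1 member, Opalin, had an unadjusted p under 0.05, as had 3757 of all genes. The members' median log2 fold change was -0.09, with 3 above and 6 below 0, and that of all genes was near 0. Opalin differed by -0.86 log2 (SE 0.36, 95% interval -1.67 to -0.06, edgeR adjusted p = 0.171), lower in 3 of 3 PSCI libraries than in any control library. Cldn11 differed by 0.75 log2 (SE 0.34, interval -0.01 to 1.51, edgeR adjusted p = 0.200). Ermn differed by -0.62 (interval -1.29 to 0.05), Mal by -0.52 (-1.49 to 0.45) and Mbp by -0.46 (-1.39 to 0.47). Mag, Mog, Mobp and Cnp differed by 0.27, 0.08, -0.05 and -0.09. With intervals of this width, a miss does not show that the levels were alike. The call on Cldn11 rested on PSCI replicate 2: without it the difference was 1.06 log2 and passed (edgeR adjusted p = 0.0273), and over the 19 alternatives its adjusted p ran from 0.0270 to 0.486.

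In taVNS against PSCI, which asks what stimulation changed among impaired rats, 0 of 9 members were called by edgeR, DESeq2 or limma-voom, against 5.75% of all genes by edgeR (0.842% higher and 4.91% lower in taVNS). At an unadjusted p under 0.05 there was 1 member, Cldn11, and 3132 genes. Cldn11 differed by -0.90 log2 (SE 0.34, interval -1.65 to -0.14, edgeR adjusted p = 0.165), and without PSCI replicate 2 by -1.21 (edgeR adjusted p = 0.0244). Over the 19 alternatives its adjusted p ran from 0.0244 to 0.418. Opalin differed by 0.63 (interval -0.17 to 1.44), Ermn by 0.59 (-0.08 to 1.26) and Mbp by 0.34 (-0.59 to 1.26). The other 5 lay between -0.24 (Mag) and 0.13 (Mal), and the members' median was 0.04. This comparison shares the PSCI libraries with the one before, so opposite signs in the 2 comparisons are not independent of each other.

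In taVNS against control, which asks how far stimulated rats stood from rats without stroke, 0 of 9 members were called by edgeR, DESeq2 or limma-voom, and 0% of all genes by edgeR. At an unadjusted p under 0.05 there were 0 members and 557 genes, and DESeq2 called 9 genes, none of them a member. The differences ran from -0.39 log2 for Mal (interval -1.36 to 0.58) to 0.04 for Mog (-0.69 to 0.78). That of Cldn11 was -0.15 (-0.90 to 0.61) and that of Opalin -0.23 (-1.03 to 0.57).

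**Figure D2:**
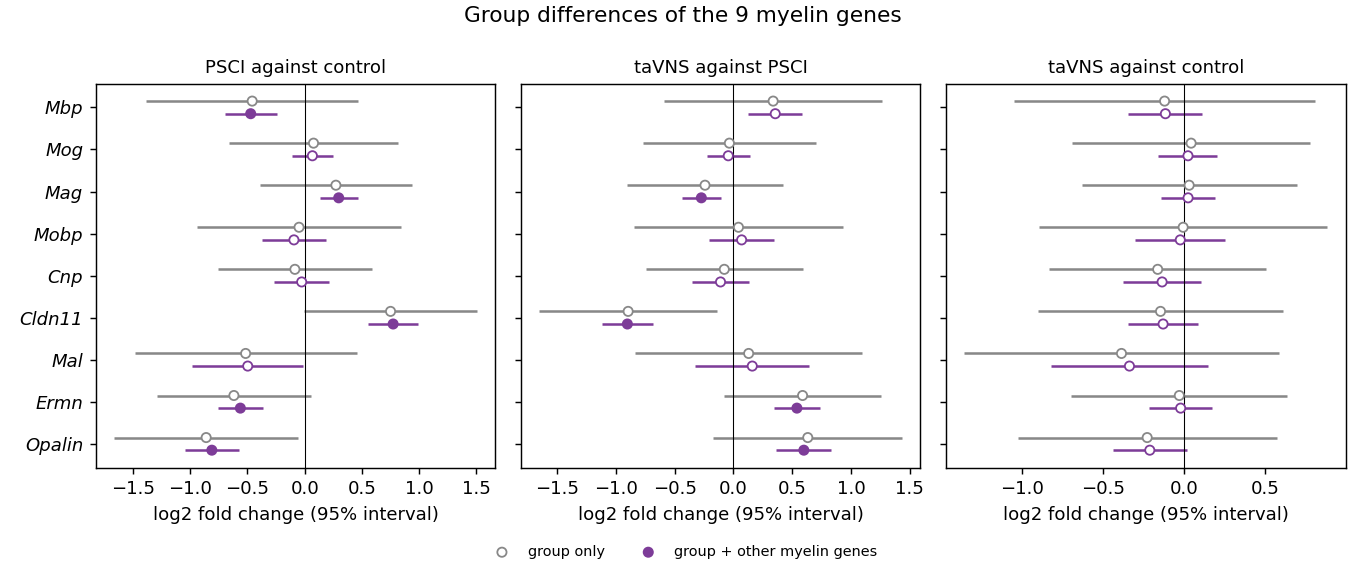
Log2 fold change of each member in the 3 comparisons, with 95% intervals, from the fit on group and from the fit that also holds the level of 14 other myelin genes; filled points have an adjusted p under 0.05. In the fit on group no point is filled, and with the covariate the intervals narrow and Cldn11 (0.77) and Opalin (-0.81) lie on opposite sides of 0 in PSCI against control.

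Each member was then set against the others in its own library, as its log2 CPM minus the mean log2 CPM of the 9. On that scale the scatter within groups was far smaller, with a pooled SD of 0.0695 for Cldn11 in place of 0.510 and of 0.0748 for Opalin in place of 0.542. Cldn11 lay at -0.61 to -0.57 in control, 0.24 to 0.43 in PSCI and -0.69 to -0.58 in taVNS. Opalin lay at -1.44 to -1.23 in control, -2.04 to -1.96 in PSCI and -1.52 to -1.39 in taVNS. For both genes the PSCI libraries stood clear of all 6 others, with PSCI replicate 2 among its group.

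The difference of PSCI from control was 0.93 log2 (1.90-fold) for Cldn11, 0.46 for Mag and 0.22 for Mog on the higher side. It was -0.65 (1.57-fold lower) for Opalin, -0.39 for Ermn and -0.34 for Mbp on the lower side. These 6 of 9 members did not overlap between PSCI and control, against 8.77% of all genes set on the same scale. Mobp at 0.04, Cnp at 0.14 and Mal at -0.40 overlapped. The same 6 members did not overlap between taVNS and PSCI, against 5.9% of all genes, with differences of -0.96 for Cldn11, -0.34 for Mag, -0.09 for Mog, 0.33 for Mbp, 0.47 for Ermn and 0.55 for Opalin. Between taVNS and control 3 of 9 did not overlap, against 2.71% of all genes: Mag differed by 0.12, Ermn by 0.08 and Mal by -0.24. Since the mean of the 9 is the yardstick, a rise of one member lowers the others on this scale, and no test was made on it. The yardstick also sets the shares of all genes: taking out the mean of the 9 removes what the members have in common and adds the spread of the myelin genes to every other gene, so 6 of 9 against 8.77% is a description and shows nothing particular to the members. With RPKM in place of counts the differences were nearly the same, 0.92 for Cldn11 and -0.65 for Opalin.

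**Figure D3:**
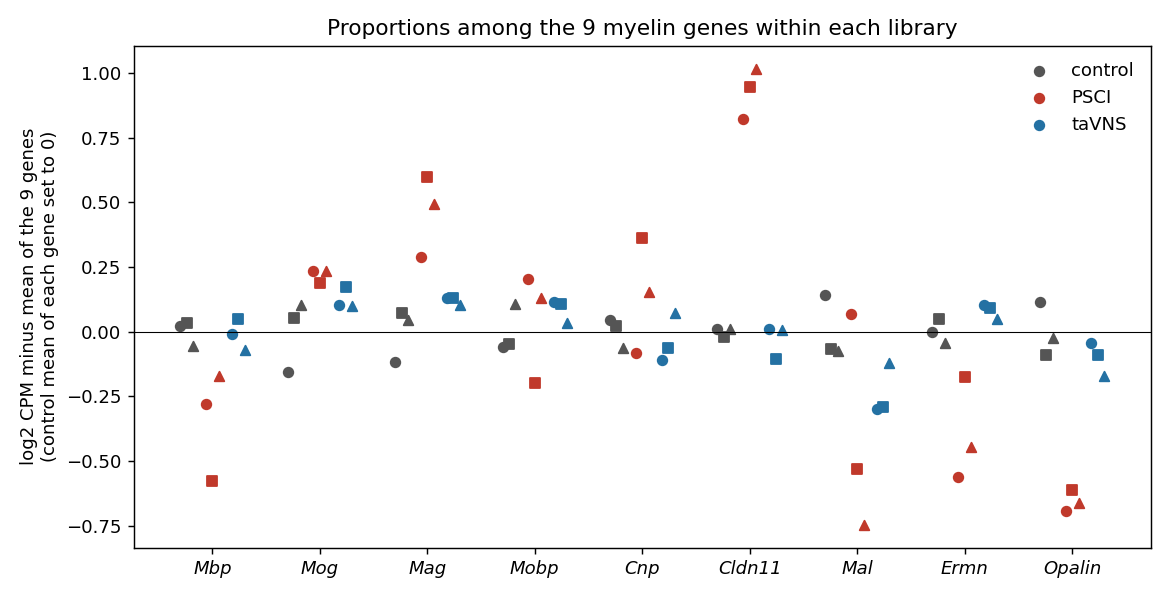
Log2 CPM of each member minus the mean log2 CPM of all 9 members in the same library (y axis), drawn with the control mean of each gene set to 0, by group (grey control, red PSCI, blue taVNS; circle, square and triangle are replicates 1, 2 and 3). The PSCI points average 0.93 above control for Cldn11 and lie at -0.65 on average for Opalin, clear of all control and taVNS points.

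Ratios to a single gene, Mog, which were also picked after the values had been seen, do not depend on the mean of the 9. They do carry the shift of Mog itself, which on the scale above stood 0.22 log2 higher in PSCI than in control. Cldn11 per Mog was 2.51, 2.13 and 2.11 in control, 3.37, 3.79 and 3.86 in PSCI and 2.10, 1.85 and 2.11 in taVNS, by CPM. Opalin per Mog was 1.59, 1.2 and 1.21 in control, 0.695, 0.759 and 0.711 in PSCI and 1.19, 1.10 and 1.10 in taVNS. Ermn per Mog was 0.784, 0.702 and 0.636, then 0.406, 0.548 and 0.441, then 0.703, 0.667 and 0.681 in the same order. In each of these 3 ratios every PSCI library lay outside the other 6. Mal per Mog was 4.06, 3.05 and 2.92 in control, 2.94, 2.01 and 1.68 in PSCI and 2.50, 2.40 and 2.84 in taVNS. Its PSCI values overlapped those of both other groups, while each taVNS value lay below each control value.

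A test at equal level of other myelin genes was added after these values had been seen, so its p-values describe the same libraries and are no independent support. The edgeR fit was given, beside group, the mean log2 CPM of 14 further genes of myelin membrane and junctions (among them Pllp, Tspan2, Gjb1, Gjc3, Jam3, Nfasc, Cntn2, Cd9, Cmtm5, Gpr37, Hapln2 and Lpar1). That mean was 6.25 to 6.83 in control, 5.89 to 6.78 in PSCI and 6.28 to 6.75 in taVNS, and PSCI replicate 2, the lowest, had no control or taVNS library at a like level. In PSCI against control 5 of 9 members were then called, against 16.3% of all genes, 2 of them higher (10.6% of all genes were) and 3 lower (5.7%). The covariate takes out spread that the members share with these 14 genes, and the SE of Cldn11 went from 0.34 to 0.10. Genes that do not track myelin need not gain the same precision, so 16.3% is not a like background. The count of 5 of 9 is a description and shows nothing particular to the members. Cldn11 was higher by 0.77 log2 (SE 0.10, interval 0.56 to 0.99, edgeR adjusted p = 0.00126) and Mag by 0.30 (interval 0.13 to 0.46, adjusted p = 0.0243). Opalin fell by 0.81 log2 (SE 0.10, interval -1.04 to -0.58, edgeR adjusted p = 0.00141), Ermn fell by 0.56 (-0.76 to -0.36, adjusted p = 0.0033) and Mbp fell by 0.47 (-0.70 to -0.24, adjusted p = 0.0141). Mog at 0.07, Mobp at -0.09, Cnp at -0.03 and Mal at -0.50 (interval -0.98 to -0.01, adjusted p = 0.150) did not pass.

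The same fit called 4 of 9 members in taVNS against PSCI, against 11% of all genes, 2 higher (3.36% of all genes) and 2 lower (7.64%). The limit just given holds for this count too. Cldn11 fell by 0.90 log2 (SE 0.10, edgeR adjusted p = 9.4e-04) and Mag fell by 0.27 (adjusted p = 0.0439). Ermn was higher by 0.54 (adjusted p = 0.00595) and Opalin by 0.60 (adjusted p = 0.00753), while Mbp at 0.36 missed (adjusted p = 0.0546). In taVNS against control 0 of 9 members and 0% of all genes were called, with 0 members and 960 genes at an unadjusted p under 0.05, and Opalin differed by -0.21 (interval -0.44 to 0.02). No other tool was run on this model.

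Cldn11, Ermn and Opalin kept their calls in PSCI against control under all 12 alternatives to this fit, which left out each library in turn, left out PSCI replicate 2 and taVNS replicate 3 together, took Cd9 out of the covariate or built it from another list. In taVNS against PSCI Cldn11 and Ermn did so too, and Opalin missed only without PSCI replicate 2 and taVNS replicate 3 together (adjusted p = 0.0638). Mbp was no longer called against control without control replicate 3 (adjusted p = 0.0541), without PSCI replicate 2 (0.105) or without PSCI replicate 2 and taVNS replicate 3 together (0.204). Mag kept its call in 5 of 12 alternatives against control and in 3 of 12 against PSCI, and with the covariate built from 20 other oligodendrocyte genes it differed by 0.07 (adjusted p = 0.695) and -0.04 (0.864). Those 20 genes include Klk6, Tf and Gsn, called higher in PSCI in the fit on group, and Qdpr, called lower. The list of 14 includes Cd9, also called higher, so neither covariate is free of group differences. Without PSCI replicate 1, Mal passed in both comparisons, at -0.86 (adjusted p = 0.00473) and 0.52 (0.0454).

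**Figure D4:**
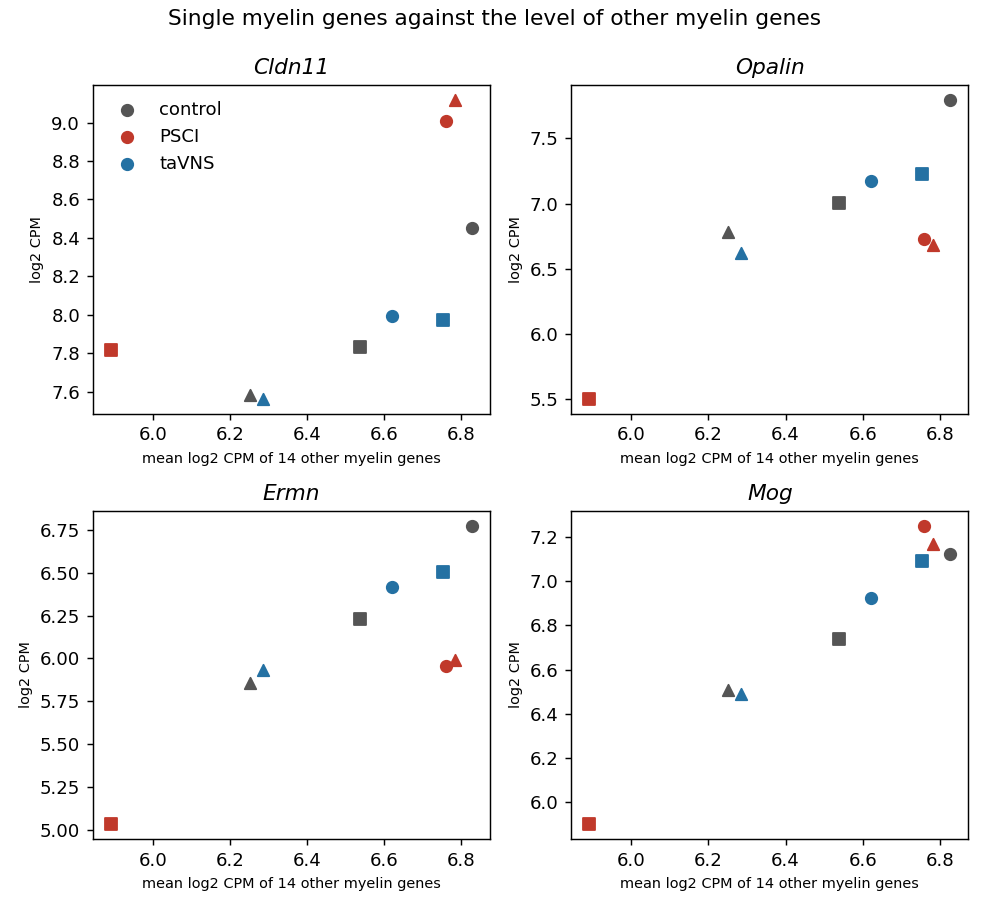
Log2 CPM of Cldn11, Opalin, Ermn and Mog against the mean log2 CPM of 14 other myelin genes, 1 point per library, with groups by colour and replicates by symbol. PSCI replicates 1 and 3 lie above the control and taVNS points for Cldn11 and below those of a like level on the x axis for Opalin and Ermn, and PSCI replicate 2 lies alone at 5.89 on the x axis.

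How far each gene tracked the rest is given as a description over the 9 libraries, which share their depth and dissection. The Pearson correlation of a member's log2 CPM with the mean of the other 8 was 0.98 for Mobp, 0.96 for Mog, 0.95 for Mbp and Cnp, 0.86 for Mal and Mag, 0.83 for Ermn and 0.82 for Opalin. Cldn11 had the lowest, 0.54. Among 11540 other genes with a mean of at least 5 CPM, the 8 most like the members' mean profile had correlations of 0.97 to 0.98. Pllp, plasmolipin of the myelin membrane, was among them, with Nipal4, Plcl1, Ppp1r1b, Slc30a3, Nfia and Lratd1. Of these, Slc30a3 encodes the zinc transporter of glutamatergic synaptic vesicles and Ppp1r1b the neuronal phosphatase inhibitor DARPP-32. Slc30a3 ranged from 103 to 177 CPM in control, 35.2 to 158 in PSCI and 84.1 to 144 in taVNS.

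Other genes of the lineage were counted in the same way. Over 6 lists of 69 tested genes (other myelin membrane and junction, myelin lipid synthesis, other mature oligodendrocyte, transcription factors, newly formed oligodendrocyte, and precursor genes), the edgeR fit on group called 7 higher and 3 lower in PSCI than in control, with a median of 0.05 log2. Of all genes 7.71% were called higher and 2.14% lower, so counts this small are near the background. Between taVNS and PSCI 2 were higher and 7 lower, against 0.842% and 4.91% of all genes, and between taVNS and control 0 were called in either direction. At equal level of other myelin genes, a level taken from 14 of these same genes, 10 were higher and 11 lower in PSCI than in control (10.6% and 5.7% of all genes), and 7 were higher and 14 lower in taVNS than in PSCI (3.36% and 7.64%). The genes below are those of the fit on group.

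Of 20 other mature oligodendrocyte genes, 3 were higher and 1 lower in PSCI. Klk6, a secreted protease of oligodendrocytes, stood at 22.4, 8.64 and 13.8 CPM in control, 59.2, 45.2 and 103 in PSCI and 22.1, 20.3 and 16.1 in taVNS. It was higher by 2.21 log2 in PSCI (SE 0.38, edgeR adjusted p = 0.00875). Tf, the iron carrier transferrin, stood at 627, 457 and 388 CPM in control, 1330, 1278 and 2296 in PSCI and 533, 685 and 377 in taVNS, higher by 1.74 log2 in PSCI (SE 0.30, edgeR adjusted p = 0.00893). Gsn, the actin-severing gelsolin, was higher by 1.14, and Qdpr, which regenerates tetrahydrobiopterin, fell by 0.66. In all 3 of the genes that rose, each PSCI library was above each other library, PSCI replicate 2 included, where 8 of the 9 members had their lowest level of all libraries. These 3 genes were picked by their calls, so their separation is a description. Of all genes tested, 27.4% did not overlap between PSCI and control, in either direction. That is a looser measure, since the taVNS libraries had no part in it.

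Of the 14 other myelin membrane genes 1 was higher in PSCI and 0 lower. It was Cd9, a tetraspanin, at 104, 72.7 and 60.2 CPM in control, 130, 150 and 193 in PSCI and 87.0, 86.7 and 60.3 in taVNS (1.00 log2, edgeR adjusted p = 0.0272). Of 9 lipid synthesis and transfer genes Gltp, the glycolipid transfer protein, was higher by 0.80. Of 8 genes of newly formed oligodendrocytes, Itpr2 was higher by 0.80, Gpr17 fell by 0.45 and Tmem163 fell by 0.92. Of 9 precursor genes Vcan, the proteoglycan versican, was higher by 0.87. None of 9 lineage transcription factors was called in PSCI against control, and Myrf stood at 130, 138 and 102 CPM in control, 140, 90.8 and 162 in PSCI and 117, 139 and 101 in taVNS. Olig1, another of these factors, stood at 115 to 132 CPM in control, 136 to 169 in PSCI and 91.2 to 113 in taVNS. Cd9, Tf, Gsn and Vcan are also made by astrocytes, microglia or other cells, whose markers moved as given above.

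Between taVNS and PSCI the called genes of these lists were Klk6 (-1.83 log2), Tf (-1.62), Gsn (-1.07), Cd9 (-1.02), Vcan (-0.87), Gltp (-0.80) and Olig1 (-0.49), all lower. Tmem163 (0.89) and Qdpr (0.76) were higher. Many of these calls were near the threshold: in PSCI against control 9 of the 10 were lost without control replicate 3 (Klk6 at adjusted p = 0.0516 and Tf at 0.0514, with Qdpr the exception). Klk6 and Tf kept that call in 18 of 19 alternatives, Itpr2 in 17, Gsn in 15, Cd9, Tmem163 and Vcan in 14 and Gltp in 12, while Gpr17 kept it in 4 and Qdpr, at adjusted p = 0.0499, in 3. In taVNS against PSCI all 9 were lost without taVNS replicate 1 (adjusted p from 0.0920 to 0.147) and without taVNS replicate 3 (0.0638 to 0.179). Of 7 markers of peripheral myelin, which Schwann cells make, 3 passed the filter on low counts and 0 of these were called in either comparison. Drp2, also known from the brain, stood at 74.9 to 92.1 CPM in control, 84.4 to 127 in PSCI and 77.3 to 102 in taVNS. Pmp22 stood at 45.4, 33.6 and 26 CPM in control, 65.2, 46.5 and 79.5 in PSCI and 33.6, 41.8 and 27.5 in taVNS, and missed the test in PSCI against control (0.86 log2, edgeR adjusted p = 0.0631).

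**Figure D5:**
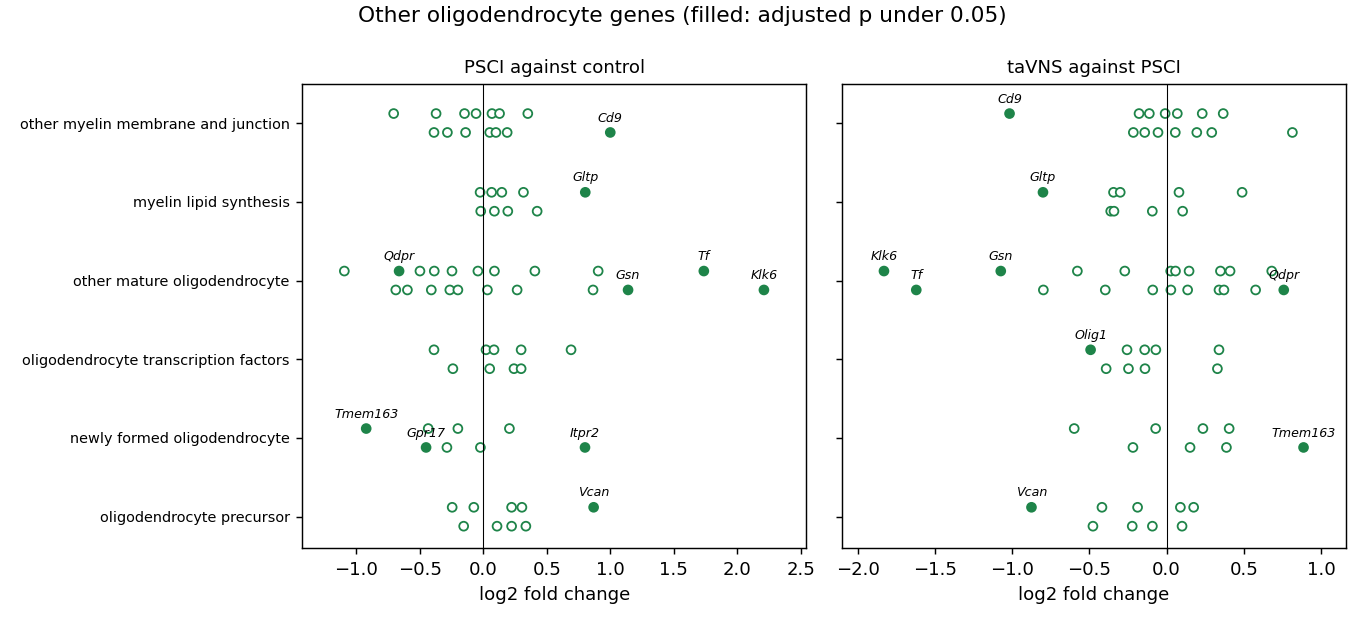
Log2 fold change of each tested gene of the 6 other oligodendrocyte lists in PSCI against control (left) and taVNS against PSCI (right), 1 point per gene, filled and named where the adjusted p from edgeR was under 0.05. The filled point farthest from 0 is Klk6 in both panels, at 2.21 and -1.83.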

How the data were processed

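Hippocampal RNA libraries of 9 male rats were analysed, 3 each of control, PSCI and taVNS, grouped by their titles. The authors deposited 2 tables per library. One holds expected counts (reads assigned to genes by a model, not scaled), which were rounded to whole numbers, and the other RPKM, which the authors scaled for depth and gene length. HISAT2 2.0.4, RSEM 1.2.8 and the build mRatBN7.2 were used, per the submitters' processing notes, while the role of each tool and the annotation were not given in the sources used here. Reads shared between similar genes were thus split by a model, and reads from more oligodendrocytes and from more RNA per cell add to the same count.

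Counts were filtered with filterByExpr (14840 genes left), TMM-scaled and tested in edgeR 4.0.16 (R 4.3.3) by its quasi-likelihood F test; 1 model with group as its term took in the 9 libraries and left 6 residual degrees of freedom. P-values were adjusted by Benjamini-Hochberg over all genes and called under 0.05. The SE is the log2 fold change divided by the root of F, and 95% intervals use the fit's total degrees of freedom, 9.18. Log2 CPM used a prior count of 2. The fit with the level of 14 other myelin genes was added after the data had been seen (total degrees of freedom 9.36). The alternatives were DESeq2 1.42.0, limma-voom (limma 3.58.1), limma on log2 RPKM with pseudocounts of 0.1 and 1, other size factors, no filter, the 2 groups alone, a replicate block and left-out libraries. Totals of 13747389 to 15415694 counts per library set the precision, and floors cover counting error only. P-values set a group difference against the spread between rats of the same group, estimated from these 9 rats.

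The members and gene lists were chosen with earlier results of these data known. All members are named; of the other oligodendrocyte lists, up to 4 called genes per list and comparison, or with none called the 2 with the highest CPM, and the 8 genes most correlated with the members; Slc30a3 is given values beyond that. Some genes are not reported here. Promoters were found for 7 of the 9 members in RefSeq's GRCr8 table. The fits were also run on simulated counts with planted changes, in which the listed myelin genes shared a factor in each library. That setting was not built to try a covariate whose genes differ by group, as Cd9 did here.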

Additional observations from a re-analysis of the deposited data

How the results depend on the processing

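No member was called in the fit on group by DESeq2, limma-voom, limma on RPKM, other size factors, no filter, the 2 groups alone or the replicate block, in any of the 3 comparisons. Members called ran from 0 to 1 over left-out libraries in PSCI against control and in taVNS against PSCI, the 1 being Cldn11 without PSCI replicate 2, and it was 1 in PSCI against control with PSCI replicate 2 and taVNS replicate 3 both left out. All genes called moved more. In PSCI against control there were 2257 by DESeq2, 806 with the 2 groups alone and 548 to 2255 over left-out libraries, in place of 1461. In taVNS against PSCI there were 1550 by DESeq2, 480 by limma-voom, 250 with the 2 groups alone, 518 with the replicate block, 361 with PSCI replicate 2 and taVNS replicate 3 both left out and 172 to 1707 over left-out libraries, in place of 854. In taVNS against control there were 9 by DESeq2, 1 by limma on RPKM with no filter, 1 with both libraries left out and 0 to 1 over left-out libraries. The same replicate number does not mark a shared source in the labels, and the correlations of deviations between same-numbered libraries ran from -0.468 to 0.255, so the block has no pairing to rest on. At equal level of other myelin genes, members called in PSCI against control were 3 to 6 over left-out libraries and 3 with both libraries left out, in place of 5, and genes called were 844 to 3162 and 499, in place of 2420. Between taVNS and PSCI members called were 3 to 5 and 2, in place of 4, and genes called 420 to 2609 and 313, in place of 1632. In taVNS against control genes called were 0 to 2. The causes of these moves were not tested, beyond the smaller number of libraries in a left-out fit.

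Under the alternatives run, signs turned only for members that were not called. In PSCI against control Mog was at -0.016 by limma-voom and -0.15 to 0.40 over left-out libraries. Mobp was at 0.31 with PSCI replicate 2 and taVNS replicate 3 both left out and at -0.34 to 0.33 over left-out libraries, and Cnp at 0.15 and at -0.30 to 0.23. Between taVNS and PSCI Mog was at 0.061 by limma-voom, 0.018, 0.017 and 0.018 by limma on RPKM with pseudocounts of 0.1 and 1 and with no filter, 0.015 with the replicate block and -0.36 to 0.19 over left-out libraries. Mobp was at -0.16 and Mal at -0.13 with both libraries left out. Over left-out libraries Mbp lay at -0.031 to 0.57, Mobp at -0.33 to 0.33, Cnp at -0.33 to 0.12 and Mal at -0.23 to 0.71.

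In taVNS against control Mobp was at 0.0053 by limma-voom, 0.045, 0.044 and 0.045 by limma on RPKM in the same order, and 0.045 with the replicate block. Ermn was at 0.028, 0.027 and 0.028 by limma on RPKM and 0.0062 with the replicate block. With both libraries left out Mbp was at 0.035, Mobp at 0.15 and Ermn at 0.12. Over left-out libraries Mbp lay at -0.32 to 0.18, Mog at -0.092 to 0.23, Mag at -0.12 to 0.24, Mobp at -0.14 to 0.24, Cnp at -0.36 to 0.15, Cldn11 at -0.32 to 0.15, Ermn at -0.22 to 0.25 and Opalin at -0.42 to 0.14.

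At equal level of other myelin genes, PSCI against control, Mog was at -0.17 with the covariate from other mature oligodendrocyte genes, Mobp at 0.034 and Cnp at 0.062 with the covariate without Cd9, and Mobp at 0.073 with both libraries left out. Over left-out libraries Mobp lay at -0.19 to 0.054 and Cnp at -0.099 to 0.089. Between taVNS and PSCI Mog was at 0.20 and Cnp at 0.13 with the other covariate, and Mobp at -0.058 without Cd9 and -0.064 with both libraries left out. Over left-out libraries Mog lay at -0.12 to 0.014, Mobp at -0.073 to 0.17 and Mal at -0.074 to 0.52. In taVNS against control Mobp was at 0.0093 with both libraries left out, and over left-out libraries Mog lay at -0.015 to 0.086, Mobp at -0.096 to 0.091 and Ermn at -0.072 to 0.066. Signs did not turn for Cldn11, Ermn or Opalin in PSCI against control or taVNS against PSCI, in either fit, under the alternatives run.

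With 3 libraries a group and members that differ up to 3.76-fold within PSCI, the intervals of the level changes were wide, and a change whose interval held 0 could not be told from none. Raised meningeal markers in PSCI replicate 2 and taVNS replicate 3, and the makeup of cells in each piece of tissue, were not separated from the groups.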
